A study of Homo sapiens with 48 samples.

Results

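The genes described here are 32 genes of sterol and fatty acid synthesis, out of 19253 in the deposited gene table. They were chosen by their symbols as a list for synthesis driven by the sterol regulatory element-binding proteins (SREBPs). Not every gene listed is itself switched on by SREBPs, as MYLIP is induced when sterols accumulate. All 32 were found, and all 32 passed the filter on low counts. By role, 7 make isoprenoid precursors in the mevalonate pathway, 11 turn them into cholesterol by way of squalene, 6 regulate the pathway or move sterols, and 8 make, lengthen or desaturate fatty acids or lead them into lipids. RNA was sequenced from 48 libraries of wild-type H9 cells, a human embryonic stem cell line, in 24 groups of 2. The D0 group was taken before differentiation, and the other 23 groups after 8 days of monolayer differentiation in E6 medium on 24-well plates, with an exposure throughout. DMSO is the solvent control, and DMSO_S9 is the solvent with S9. The compounds given both with and without S9 were ACE, CYC, IMI, TDCIPP, TEP and TPHP, called the 6 compounds here. The 9 compounds given without S9 only were BHT, BHT_CHO, BHT_COOH, BHA, TBHQ, DTBP, DG, AO_2246 and AO168_O. The labels name the compound families as NEOs, OPEs, SPAs and metabolites and give neither doses nor the meaning of S9. Toxicologists use the name S9 for a liver extract with drug-metabolising enzymes. Nothing in the labels says that the 2 libraries of a group came from separate differentiations, so p-values measure the spread between these libraries, which may be technical.

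Libraries held 17918867 to 20096130 gene counts and 17078 to 18009 genes with a count. Both DMSO_S9 libraries stood apart: 3 genes were at 0 there that had at least 1 CPM (counts scaled to a common library size) in every other day 8 library, which no other day 8 group showed. DG replicate 1 had the most genes with a count. The summed level of 7 pluripotency markers was 6919 and 7306 TPM (levels scaled to library size and transcript length) on D0 against 3091 and 3968 TPM in DMSO, and that of 7 neural ectoderm markers went from 31.7 and 42.1 TPM to 717 and 980 TPM. Of 6 hepatocyte markers, 2 were at 0 on D0 (ALB and TTR), and their sum stayed between 0.85 and 4.64 TPM over all 48 libraries.

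Cells build cholesterol from acetyl-CoA through mevalonate, isoprenoids, squalene and lanosterol, and fatty acids from acetyl-CoA through malonyl-CoA. Both pathways are switched on by SREBPs, membrane-bound transcription factors. When membrane sterol is low, the escort protein SCAP carries them to the Golgi, where they are cleaved and released to the nucleus. When sterol is plentiful, INSIG proteins hold SCAP in the endoplasmic reticulum and the target genes are quiet.

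Levels per length differed widely among the genes. FDFT1, which makes squalene, had the highest mean TPM of the 32 both on D0 (817 TPM) and over the 46 day 8 libraries (317 TPM). SCD and FADS2, which put double bonds into fatty acids, followed on D0 with 774 and 723 TPM, and reached 230.4 and 231 TPM on day 8. LPIN1, whose product turns phosphatidate into diacylglycerol, was the lowest on D0 at 5.28 TPM, and MVK, the mevalonate kinase, was the lowest on day 8 at 12.2 TPM.

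The first comparison asked how these genes changed over 8 days of differentiation with solvent. In DMSO against D0, 29 of the 32 genes fell, 1 rose and 2 did not pass the test (edgeR's quasi-likelihood test, Benjamini-Hochberg adjusted over 16209 genes, adjusted p under 0.05). Among all genes 58.2% were called in this comparison, 29.1% lower and 29.1% higher. The median log2 fold change of the 32 was -1.59, against 0.039 over all genes tested, and 19 of the genes that fell did so at least 2-fold. All 18 enzymes of sterol synthesis fell. Fewer cells with a given level and less RNA per cell cannot be told apart in such bulk libraries.

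**Figure D1:**
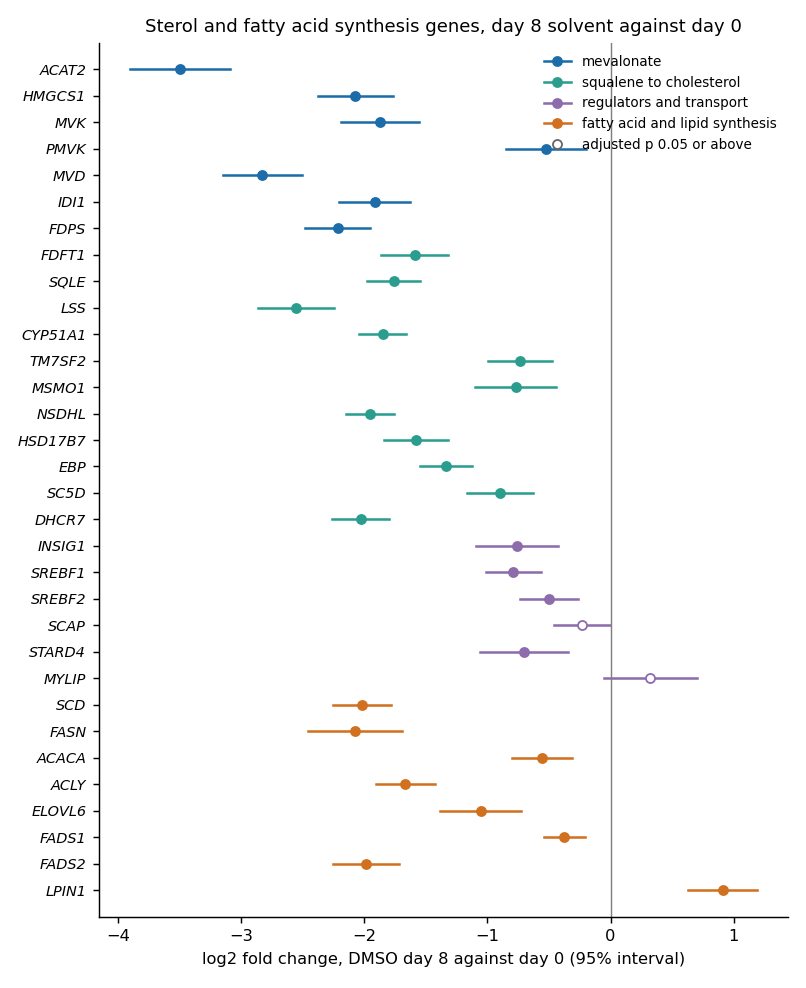
Log2 fold change of each of the 32 genes in the 2 DMSO day 8 libraries against the 2 D0 libraries (horizontal axis), with 95% intervals as lines and genes in pathway order by role (colour). Open points did not pass adjusted p under 0.05. ACAT2 lies farthest left at -3.50, and LPIN1 is the only filled point right of 0, at 0.91.

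In the mevalonate pathway all 7 enzymes fell. ACAT2, which joins 2 acetyl-CoA molecules, had 495 and 548 CPM in D0 and 55.3 and 37.1 CPM in DMSO (log2 fold change -3.50 with an SE of 0.20, adjusted p 2.14e-14). HMGCS1, which adds a further acetyl-CoA, had 556 and 447 CPM in D0 and 125 and 113 CPM in DMSO (log2 fold change -2.07 with an SE of 0.15, adjusted p 1.9e-12). MVK, which phosphorylates mevalonate, had 36.4 and 40.8 CPM in D0 and 11.1 and 9.9 CPM in DMSO (log2 fold change -1.88 with an SE of 0.16, adjusted p 3.4e-11). In each of these enzymes both day 8 libraries lay far below both D0 libraries. PMVK, the next kinase, changed least of the 7, with 17.7 and 22.3 CPM in D0 and 13.9 and 13.9 CPM in DMSO (log2 fold change -0.52 with an SE of 0.16, adjusted p 0.00525). MVD, which decarboxylates the product to an isoprenoid unit, had 184 and 288 CPM in D0 and 33.6 and 32.8 CPM in DMSO (log2 fold change -2.83 with an SE of 0.16, adjusted p 1.46e-14). IDI1 isomerises that unit and had 209 and 149 CPM in D0 and 48.6 and 46.4 CPM in DMSO (log2 fold change -1.92 with an SE of 0.14, adjusted p 3.32e-12). FDPS, which condenses the units to farnesyl diphosphate, had 414 and 549 CPM in D0 and 111 and 96.8 CPM in DMSO (log2 fold change -2.22 with an SE of 0.13, adjusted p 3.84e-14). The D0 libraries themselves differed, with MVD higher in replicate 2 and IDI1 higher in replicate 1, but neither range reached the DMSO libraries. PMVK lost its call without D0 replicate 2 (log2 fold change -0.33, adjusted p 0.131). ACAT2 overlaps TCP1 and SOD2 on the genome, MVK overlaps MMAB, IDI1 overlaps WDR37, and FDPS and IDI1 have pseudogenes named after them. Outside this pathway, SREBF1 overlaps RAI1, ACACA overlaps C17orf78, and FADS1 and FADS2 overlap each other. Their reads are uncertain where the counting could not tell these apart.

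From squalene to cholesterol all 11 enzymes fell. NSDHL, a dehydrogenase that removes a methyl group of lanosterol, had 105 and 119.99 CPM in D0 and 28.4 and 29.8 CPM in DMSO (log2 fold change -1.95 with an SE of 0.094, adjusted p 1.34e-15). CYP51A1, the lanosterol demethylase, had 194 and 182 CPM in D0 and 54.7 and 49.7 CPM in DMSO (log2 fold change -1.85 with an SE of 0.094, adjusted p 3.53e-15). DHCR7, which makes cholesterol in the last step of one branch, had 319 and 393 CPM in D0 and 78.9 and 95.2 CPM in DMSO (log2 fold change -2.03 with an SE of 0.11, adjusted p 1.37e-14). Both D0 libraries lay above both DMSO libraries in each of them, and the same held for the first enzymes of the branch. LSS, which closes the rings, had 384 and 571 CPM in D0 and 84.1 and 78.3 CPM in DMSO (log2 fold change -2.56 with an SE of 0.15, adjusted p 4.61e-14). SQLE, the epoxidase before it, had 389.7 and 331 CPM in D0 and 108 and 104 CPM in DMSO (log2 fold change -1.76 with an SE of 0.11, adjusted p 5.81e-14). FDFT1 had 925 and 1089 CPM in D0 and 355 and 314 CPM in DMSO (log2 fold change -1.59 with an SE of 0.13, adjusted p 3.54e-11). The sterol isomerase EBP had 93.5 and 129 CPM in D0 and 43.1 and 45.2 CPM in DMSO (log2 fold change -1.34), and HSD17B7, a ketosteroid reductase, had 41.98 and 41.01 CPM in D0 and 14.3 and 13.4 CPM in DMSO (-1.58). The other 3, the desaturase SC5D (-0.90), the methyl oxidase MSMO1 (-0.77) and the reductase TM7SF2 (-0.73), fell by less than 2-fold. HSD17B7 and CYP51A1 also have pseudogenes named after them, as does SCD among the fatty acid genes. How alike their sequences are was not measured.

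Of the 6 regulators and transport genes, 4 fell and 2 did not pass. SREBF1, which encodes SREBP-1, had 125 and 157 CPM in D0 and 75.8 and 86.97 CPM in DMSO (log2 fold change -0.79 with an SE of 0.11, adjusted p 3.61e-07). INSIG1, the sterol-dependent brake on SREBP processing, had 104 and 102 CPM in D0 and 64.95 and 56.9 CPM in DMSO (log2 fold change -0.76 with an SE of 0.16, adjusted p 0.000231). SREBF2, which encodes SREBP-2, had 437 and 619.9 CPM in D0 and 369 and 379 CPM in DMSO (log2 fold change -0.50 with an SE of 0.11, adjusted p 0.00046). By CPM all of these were lower in both DMSO libraries than in either D0 library, but SREBF2 did not pass without D0 replicate 2 (log2 fold change -0.21). By TPM the libraries of SREBF2 overlapped, with 141 and 193 TPM in D0 and 137 and 154 TPM in DMSO. STARD4, a cholesterol carrier, had 58.04 and 46.01 CPM in D0 and 32.7 and 31.1 CPM in DMSO (log2 fold change -0.70 with an SE of 0.18, adjusted p 0.00106). The libraries of SCAP overlapped, with 116 and 159 CPM in D0 and 109 and 125 CPM in DMSO (log2 fold change -0.23, adjusted p 0.073). MYLIP, a ubiquitin ligase that is induced when sterols accumulate, had 21.4 and 18.5 CPM in D0 and 26.1 and 23.7 CPM in DMSO (log2 fold change 0.32, adjusted p 0.138) and did not pass.

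Of the 8 fatty acid and lipid genes, 7 fell. SCD had 2298 and 2662 CPM in D0 and 638 and 585 CPM in DMSO (log2 fold change -2.02 with an SE of 0.11, adjusted p 2.14e-14). FADS2 had 1087 and 1623 CPM in D0 and 331 and 352 CPM in DMSO (log2 fold change -1.99 with an SE of 0.13, adjusted p 2.96e-13). ACLY, which makes the acetyl-CoA for both pathways from citrate, had 699 and 956 CPM in D0 and 268 and 253 CPM in DMSO (log2 fold change -1.67 with an SE of 0.12, adjusted p 1.62e-12). In all 3 the D0 libraries lay well above the DMSO libraries. FASN, the fatty acid synthase, had 1231 and 2454 CPM in D0 and 399.6 and 477 CPM in DMSO (log2 fold change -2.07 with an SE of 0.19, adjusted p 1.83e-10), with the D0 libraries themselves far apart. ELOVL6, which lengthens palmitate, had 181 and 140.3 CPM in D0 and 76.8 and 77.9 CPM in DMSO (log2 fold change -1.06 with an SE of 0.16, adjusted p 1.78e-06). FADS1, the partner desaturase whose gene overlaps FADS2 on the genome, had 207 and 228 CPM in D0 and 169.9 and 166 CPM in DMSO (log2 fold change -0.37 with an SE of 0.082, adjusted p 0.000271), and was not called in a fit of the D0 and DMSO libraries alone (-0.36, adjusted p 0.127). By TPM its libraries overlapped, with 79.5 and 85.4 TPM in D0 and 75.2 and 79.6 TPM in DMSO. ACACA, which makes malonyl-CoA, had 211 and 229 CPM in D0 and 152 and 147 CPM in DMSO (log2 fold change -0.56 with an SE of 0.12, adjusted p 0.000244). LPIN1 was the exception and rose, with 16.2 and 19.5 CPM in D0 and 32.7 and 34.3 CPM in DMSO (log2 fold change 0.91 with an SE of 0.14, adjusted p 1.54e-06). It was higher in both DMSO libraries than in either D0 library.

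The promoters of these genes were searched for motifs of factors known to act with SREBPs. RefSeq windows on GRCh38.p14, from 250 bases before to 50 bases after the start, were found for 28 of the 32 genes, and a gene with several starts counted where any of its windows held a match. The sterol regulatory element TCACNCCAC, the NF-Y motif CCAAT and the Sp1 motif GGGCGG were searched on both strands, as matches of letters only. TCACNCCAC was in 1 of the 28 genes, SREBF2 (3.57%), and in 1.39% of 27305 genes with a window. CCAAT was in 21 of 28 (75%), against 39.7% of all genes, and GGGCGG in 27 of 28 (96.4%), against 48.3%. CACGTG, the E-box that SREBPs can also bind, was in 4 of 28 (14.3%), against 8.77%. These shares describe windows of one length and are not binding sites. The 27305 genes were not limited to those of the deposited table or to those passing the count filter, which all 32 genes passed. Shares among genes at like levels were not taken, so the differences cannot be called particular to these genes. The 200 bases before the start are printed for SREBF2, the only gene with a TCACNCCAC match, for MVD, NSDHL and EBP, each with several CCAAT matches, and for ELOVL6, the gene that differed most between compounds; capitals mark the matches to the 3 motifs, on either strand.
SREBF2: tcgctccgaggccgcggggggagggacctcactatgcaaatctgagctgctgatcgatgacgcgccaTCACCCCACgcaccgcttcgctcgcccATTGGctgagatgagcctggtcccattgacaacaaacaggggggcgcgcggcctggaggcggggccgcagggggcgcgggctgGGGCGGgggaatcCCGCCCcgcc
MVD: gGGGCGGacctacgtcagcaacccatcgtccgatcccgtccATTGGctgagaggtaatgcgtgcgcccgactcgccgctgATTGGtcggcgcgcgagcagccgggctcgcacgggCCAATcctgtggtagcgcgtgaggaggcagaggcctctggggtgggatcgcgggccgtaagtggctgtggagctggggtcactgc
NSDHL: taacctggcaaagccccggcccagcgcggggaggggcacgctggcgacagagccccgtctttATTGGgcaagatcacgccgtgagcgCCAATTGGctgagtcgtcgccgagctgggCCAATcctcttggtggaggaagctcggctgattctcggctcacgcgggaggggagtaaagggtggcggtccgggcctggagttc
EBP: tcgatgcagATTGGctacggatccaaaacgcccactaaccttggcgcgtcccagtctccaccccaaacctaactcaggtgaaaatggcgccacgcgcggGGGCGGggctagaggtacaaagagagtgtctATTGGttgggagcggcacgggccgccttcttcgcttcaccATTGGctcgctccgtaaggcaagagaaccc
ELOVL6: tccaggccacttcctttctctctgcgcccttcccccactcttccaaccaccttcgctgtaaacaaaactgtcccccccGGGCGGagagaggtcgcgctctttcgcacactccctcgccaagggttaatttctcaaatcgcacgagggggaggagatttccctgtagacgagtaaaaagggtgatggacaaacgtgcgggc
SREBF2 lies on the plus strand (chr22:41832905-41833104), MVD on the minus strand (chr16:88663092-88663291), NSDHL on the plus strand (chrX:152830863-152831062), EBP on the plus strand (chrX:48521608-48521807) and ELOVL6 on the minus strand (chr4:110198616-110198815). In SREBF2 the sterol regulatory element stood at positions -133 to -125 and a CCAAT in reverse at -106 to -102, counted from the start. In MVD, whose RNA fell by 2.83 on the log2 scale, 3 CCAAT matches stood before the start, and NSDHL had 4 in the printed stretch. ELOVL6 had no CCAAT and 1 GGGCGG match there.

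Each of the other day 8 groups was set against D0 as well; these comparisons share the D0 libraries. Over all 23 groups 685 of 736 tests were called, 31 higher and 654 lower, where 59.6% of all gene tests were called and 30% were lower. LPIN1 was higher in 23 of 23 groups, by 0.83 to 1.31 on the log2 scale. SCAP was called in 0 of 23 groups. MYLIP was higher in 8 groups and most in CYC (0.93). PMVK was lower in 16 groups, TM7SF2 in 19, and STARD4 and FADS1 in 22, both excepting DMSO_S9. The other 25 genes were lower in all 23 groups by scaled counts. Mean TPM did not show this for every gene and group. SREBF1 had 51.9 TPM on D0 and more in ACE_S9, CYC_S9, IMI_S9, TDCIPP, TDCIPP_S9, TEP_S9, TPHP and TPHP_S9. Its means there ran from 52.8 TPM (TDCIPP) to 58.8 TPM (TEP_S9). SREBF2 had 167 TPM on D0 and 170.7 TPM in DMSO_S9. The mean of the 23 groups differed from D0 in 31 genes (68.9% of all genes were called), MYLIP among them as higher (log2 fold change 0.36, SE 0.14, adjusted p 0.0236). The summed level of the 18 sterol enzymes was 3690 and 4108 TPM on D0 and between 1075 TPM (CYC replicate 1) and 1379 TPM (TDCIPP_S9 replicate 2) on day 8. That of the 8 fatty acid genes was 1998 and 2667 TPM on D0, and 673 TPM (TBHQ replicate 1) to 1011 TPM (TEP replicate 2) on day 8.

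**Figure D2:**
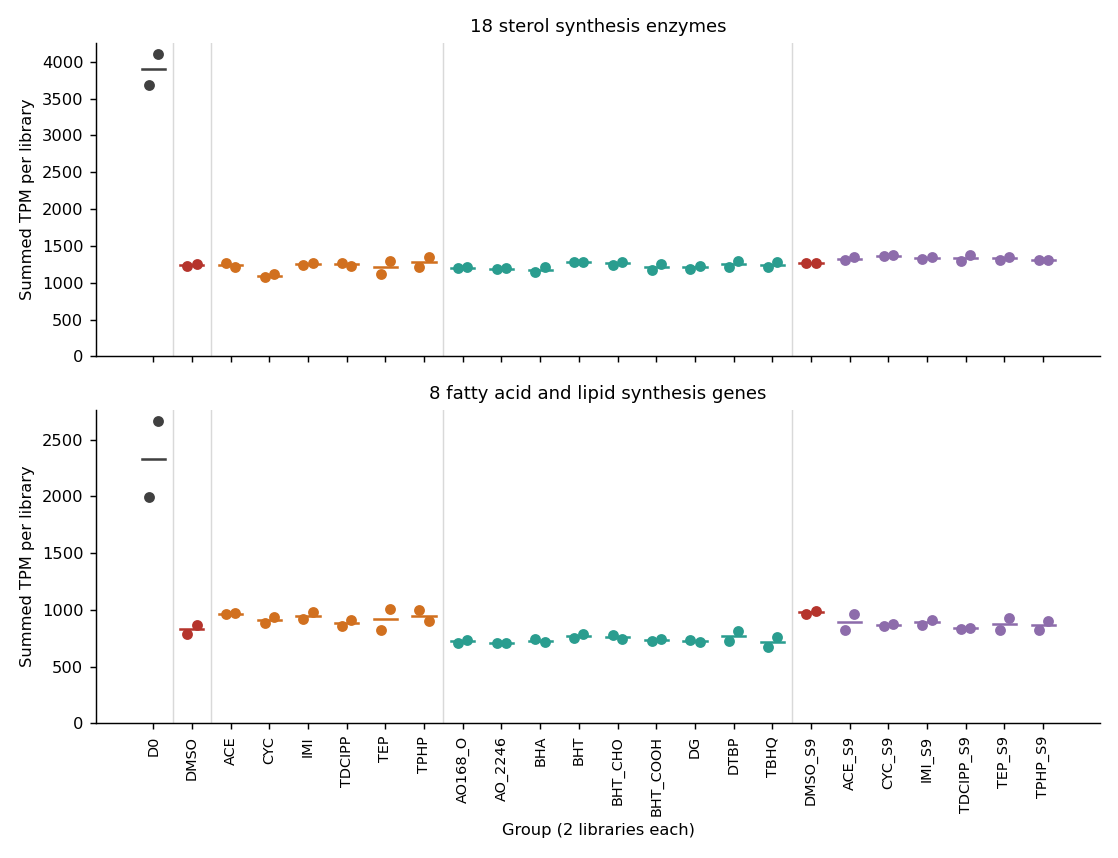
Summed TPM per library (vertical axis) of the 18 sterol synthesis enzymes (top) and the 8 fatty acid and lipid genes (bottom) in the 24 groups; points are single libraries and lines group means, with colours for D0, solvent, the 6 compounds that also have an S9 arm, the 9 compounds that do not, and the 6 compounds with S9. Both D0 libraries lie above every day 8 library in both panels, and the 6 compounds lie at 823 to 1011 TPM in the lower panel against 673 to 815 TPM for the 9.

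Genes next to these in the pathways were counted by list, beside 58.2% of all genes called in DMSO against D0, 29.1% in each direction. Of 10 genes of SREBP processing and turnover, 3 rose and 2 fell in DMSO against D0. TMEM97, a sterol-responsive membrane protein, fell by 1.61 on the log2 scale (SE 0.11). INSIG2, the second INSIG, rose by 0.74 (SE 0.16). Of 10 genes of isoprenoid branches, 6 fell and 2 rose, led by PDSS1 (-1.58), which makes the side chain of ubiquinone. Of 18 genes of sterol transport, storage and efflux, 7 rose and 7 fell: SOAT1, which esterifies cholesterol, rose by 2.00 (SE 0.17), whereas LIPA, the lysosomal lipase that frees it, fell by 1.91 (SE 0.18) and NPC1, which exports it from lysosomes, fell by 1.01 (SE 0.12). Of 24 further fatty acid and glycerolipid genes measured, 12 fell and 4 rose. ACSS2, which makes acetyl-CoA from acetate, fell by 3.11 (SE 0.19), ME1, a source of NADPH, fell by 2.04 (SE 0.23), and DGAT2, which completes triglycerides, rose by 2.03 (SE 0.19). Of 14 genes of fatty acid oxidation, 6 fell and 3 rose, with ANGPTL4 (2.06) and PPARA (1.18) highest. With so many of all genes called, these counts are given as a description of the lists.

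Day 8 groups were compared among themselves by their mean levels. The ratio of the highest to the lowest group mean CPM was 1.19 for SCAP, 1.43 at the median and 2.24 for STARD4. It passed 2 for 4 genes, which were SREBF1 (2.16), MYLIP (2.15), ELOVL6 (2.23) and STARD4. DMSO_S9 held the lowest mean for 9 genes and the highest for 8, and CYC the lowest for 11 and the highest for 3.

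**Figure D3:**
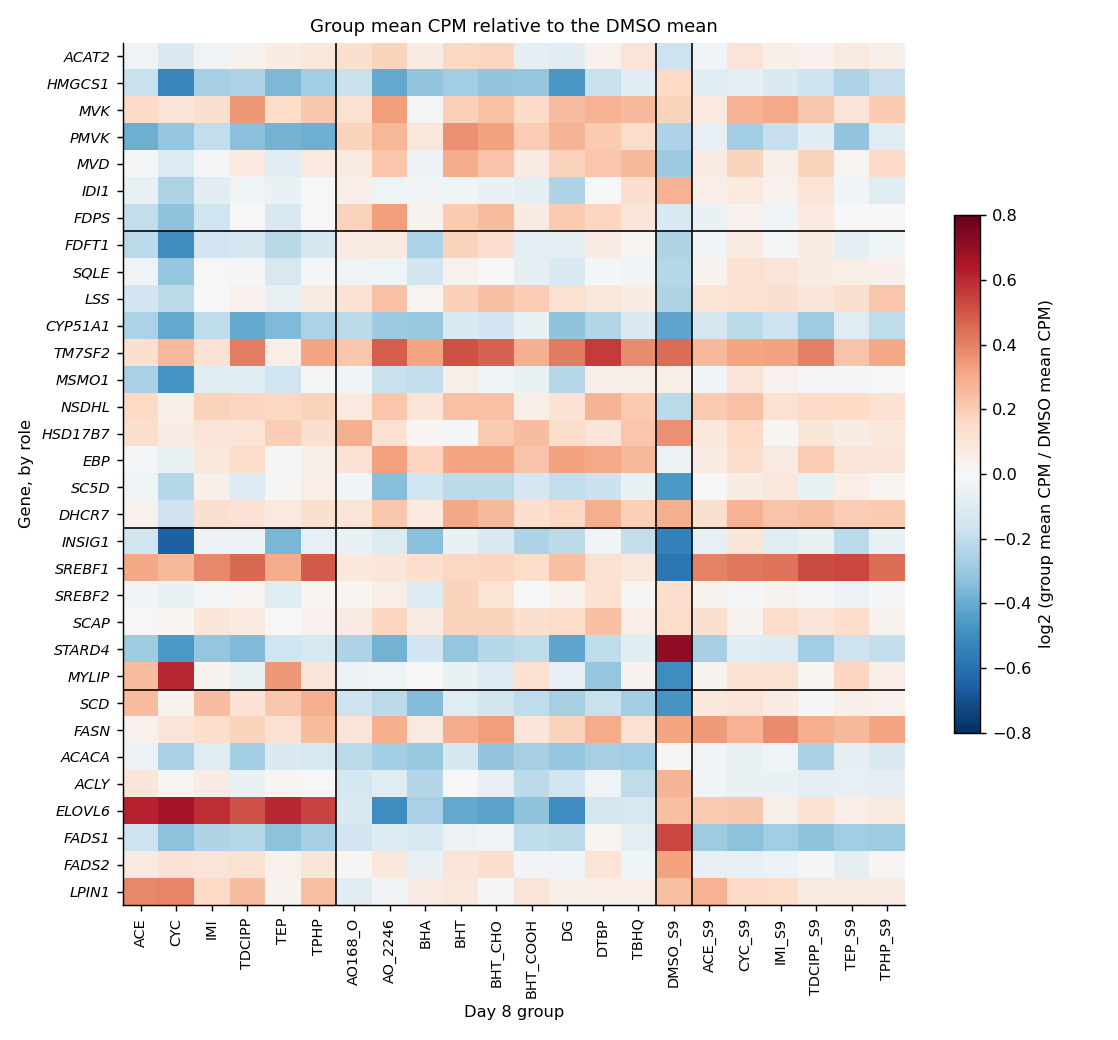
Log2 ratio of the group mean CPM to the DMSO mean CPM (colour scale from -0.8 to 0.8) for the 32 genes (rows, lines between roles) in the other 22 day 8 groups (columns; lines between the 6 compounds, the 9 compounds, DMSO_S9 and the 6 compounds with S9). ELOVL6 is red in the 6 compounds and pale to blue in the 9, the CYC column is blue for most sterol enzymes, and DMSO_S9 differs from its neighbours in STARD4, SREBF1 and FADS1.

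Each of the 15 compounds without S9 was compared with DMSO; the 15 comparisons share both DMSO libraries. Of 480 tests of the 32 genes 41 were called, 27 higher and 14 lower, or 8.54%, where 6.89% of all gene tests were called, so the share lay near the background. CYC held 13 of the calls, and AO168_O, BHA, BHT_COOH and TBHQ held 0 each, with 0%, 0.00621%, 0.00621% and 0.161% of all genes called in these 4. There the numbers of genes at an unadjusted p under 0.05 were 3, 7, 5 and 6, with 0 calls by DESeq2. All 28 calls outside CYC were lost without DMSO replicate 1, where 4 of the 480 tests passed, all in CYC. Without DMSO replicate 2, 39 passed. A fit restricted to each compound and DMSO called 15.

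ELOVL6 was higher than DMSO in each of ACE, CYC, IMI, TDCIPP, TEP and TPHP. The DMSO libraries had 76.8 and 77.9 CPM, and the 12 libraries of these compounds had 107, 116 and 125 CPM at the lowest, median and highest. Log2 fold changes ran from 0.51 in TDCIPP (adjusted p 0.0354) to 0.66 in CYC (adjusted p 0.00196), with an SE of 0.15, and no library of the 12 reached down to DMSO. In AO_2246 it was lower, at 46.3 and 63.2 CPM (log2 fold change -0.48, adjusted p 0.0452). SREBF1 was also higher in the same 6 compounds, by 0.26 in CYC to 0.50 in TPHP, with 87.00, 107 and 118 CPM against 75.8 and 86.97 CPM. Its lowest library, ACE replicate 2, was level with DMSO replicate 2.

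The reductase TM7SF2 rose in 7 compounds and the isomerase EBP in 5. TM7SF2 had 47.7 and 53.6 CPM in DMSO. The 7 compounds were BHT, BHT_CHO, DTBP, DG, AO_2246, TDCIPP and TPHP, with log2 fold changes from 0.32 in TPHP to 0.57 in DTBP (76.5 and 72.8 CPM). Both DTBP libraries lay above both DMSO libraries. EBP rose in BHT, BHT_CHO, DTBP, DG and AO_2246 by 0.31 to 0.35, from 43.1 and 45.2 CPM in DMSO to 54.6 and 55.5 CPM in DG. FDPS rose in AO_2246 (log2 fold change 0.35, adjusted p 0.0495) from 111 and 96.8 CPM to 147 and 115 CPM. CYP51A1 fell in TDCIPP and TEP and FADS1 in TEP and TPHP, each by 0.26 to 0.41, as both did in CYC.

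In CYC, 9 of the 32 genes fell and 4 rose against DMSO, where 29.6% of all genes were called. Of the 18 sterol enzymes 6 fell and 0 rose, a share called that lay near that of all genes. The shares of all genes by direction are not given for this comparison. HMGCS1 had 125 and 113 CPM in DMSO and 79.2 and 85.9 CPM in CYC (log2 fold change -0.53 with an SE of 0.14, adjusted p 0.00549). FDPS had 111 and 96.8 CPM in DMSO and 86.8 and 79.2 CPM in CYC (log2 fold change -0.32 with an SE of 0.12, adjusted p 0.0358). FDFT1 had 355 and 314 CPM in DMSO and 225 and 248 CPM in CYC (log2 fold change -0.50 with an SE of 0.13, adjusted p 0.00391). For all 3 enzymes both CYC libraries lay below both DMSO libraries. SQLE had 108 and 104 CPM in DMSO and 84.4 and 86.97 CPM in CYC (log2 fold change -0.31 with an SE of 0.10, adjusted p 0.0182). CYP51A1 had 54.7 and 49.7 CPM in DMSO and 40.3 and 38.1 CPM in CYC (log2 fold change -0.41 with an SE of 0.092, adjusted p 0.00138). MSMO1 had 78.7 and 71.1 CPM in DMSO and 50.6 and 57.6 CPM in CYC (log2 fold change -0.47 with an SE of 0.16, adjusted p 0.0252). No CYC library of these reached a DMSO library either. The largest fall was that of INSIG1, the sterol-responsive brake, with 64.95 and 56.9 CPM in DMSO and 36.95 and 40.4 CPM in CYC (log2 fold change -0.66 with an SE of 0.17, adjusted p 0.00447). The carrier STARD4 had 32.7 and 31.1 CPM in DMSO and 22.8 and 23.7 CPM in CYC (log2 fold change -0.46 with an SE of 0.18, adjusted p 0.04996).

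On the other side, MYLIP rose in CYC, with 26.1 and 23.7 CPM in DMSO and 42.9 and 32.9 CPM in CYC (log2 fold change 0.60 with an SE of 0.18, adjusted p 0.0133). ELOVL6 had 76.8 and 77.9 CPM in DMSO and 125 and 119 CPM in CYC (log2 fold change 0.66 with an SE of 0.15, adjusted p 0.00196). LPIN1 had 32.7 and 34.3 CPM in DMSO and 46.4 and 41.7 CPM in CYC (log2 fold change 0.39 with an SE of 0.13, adjusted p 0.0207). SREBF1 rose as described for the 6 compounds, to 100.2 and 94.7 CPM, whereas FADS1 fell, with 169.9 and 166 CPM in DMSO and 132 and 134 CPM in CYC (log2 fold change -0.33 with an SE of 0.08, adjusted p 0.00266). Of the regulators' own genes, SREBF2 (-0.051) and SCAP (0.017) did not pass. Calls numbered 3 without CYC replicate 1 (CYP51A1, ELOVL6 and FADS1) and 4 without DMSO replicate 1 (the same genes and MYLIP). CYC also differed in cell type markers: the 7 surface ectoderm markers summed to 7678 and 7930 TPM against 1939 and 2275 TPM in DMSO (6 of 7 higher), the 7 neural ectoderm markers to 285 and 292 TPM against 717 and 980 TPM (6 of 7 lower), and the 5 amnion and trophoblast markers to 230 and 349 TPM against 5.16 and 10.3 TPM (4 of 4 tested higher), with CDX2 at 0 in DMSO. The 7 pluripotency markers summed to 1908 and 2286 TPM in CYC against 3091 and 3968 TPM in DMSO (5 of 7 lower). The part of these markers in the result was not tested. Among neighbours of the pathway, ABCA1 (0.94) and ABCG1 (0.91), which export cholesterol, rose in CYC, and LIPA (-1.35) and the HDL receptor SCARB1 (-0.48) fell, among 6 of 17 transport genes called, where 29.6% of all genes were called. Of 24 further fatty acid genes 4 rose and 5 fell, led by ELOVL5 (-0.59) and ACSL4 (-0.61), and of 14 oxidation genes 4 rose and 1 fell. The shares called in these 3 lists lay near that of all genes.

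CYC was then set against the mean of ACE, IMI, TDCIPP, TEP and TPHP, to test whether it differed from them. INSIG1 alone passed, as lower (log2 fold change -0.52, SE 0.14, adjusted p 0.0447), where 1.98% of all genes were called. It had 36.95 and 40.4 CPM in CYC. The TPHP libraries had 45.9 and 70.7 CPM, the TEP libraries 36.4 and 58.04, the TDCIPP libraries 58.5 and 59.97, the ACE libraries 54.5 and 54.8 and the IMI libraries 56.2 and 62.2. TEP replicate 1 lay below both CYC libraries. The call did not hold in every fit: 0 to 6 of the 32 genes passed when 1 library was left out, with 0 passing without either CYC replicate, without replicate 1 of ACE, IMI or TDCIPP and without replicate 2 of TEP or TPHP. It was 4 without ACE replicate 2, 5 without TEP replicate 1 and 6 without TPHP replicate 1. The estimate was below 0 for 26 of the 32 genes.

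**Figure D4:**
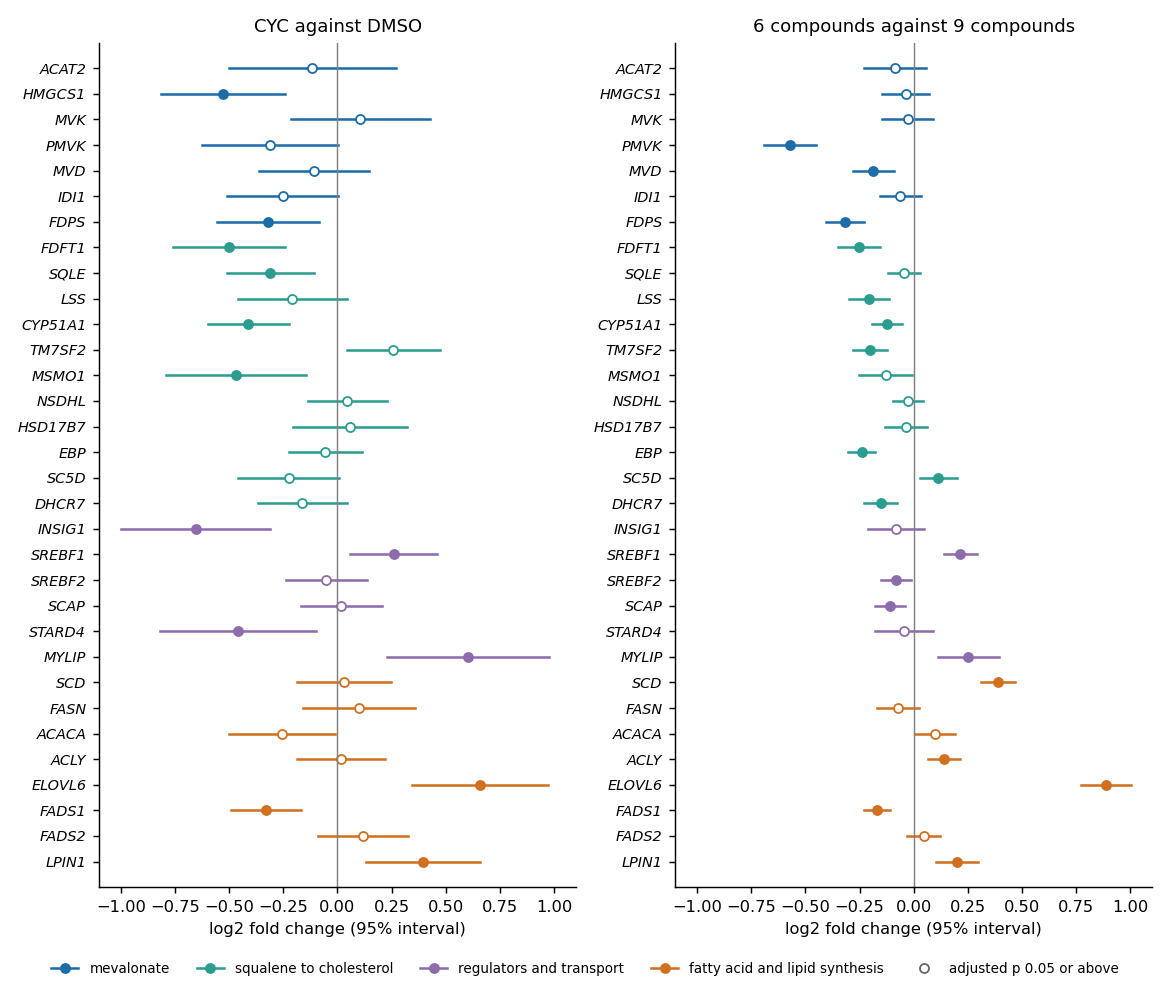
Log2 fold change with 95% interval (horizontal axes) of the 32 genes for CYC against DMSO (left) and for the mean of the 6 compounds against the mean of the 9 compounds (right), by role (colour); open points did not pass adjusted p under 0.05. In CYC the filled sterol enzymes lie left of 0, from -0.53 to -0.31, and at right ELOVL6 stands alone at 0.89.

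The 6 compounds that also have an S9 arm were compared with the 9 that do not, without using DMSO. As in the other contrasts of means over groups, SEs and p-values rest on the spread between the 2 libraries of a group. They do not measure the spread between compounds. Replicate differences were correlated in 29 of 36 pairs among the 9 compounds (over 0.1), so the SEs may be too small. Of the 32 genes 12 were lower and 7 higher in the 6 compounds (59.4% in all). Among all genes 66.5% were called, 33.4% lower and 33.1% higher, so the share was no higher than the background. Of the 8 fatty acid genes 4 were higher and 1 lower, and of the 18 sterol enzymes 9 were lower and 1 higher. These calls are by scaled counts. The summed TPM of the 18 sterol enzymes was not lower, with medians of 1237 TPM in the 6 compounds and 1211 TPM in the 9. Its ranges overlapped (1075 to 1350 and 1141 to 1298 TPM), so the direction of small differences can depend on the scaling. ELOVL6 had 107, 116 and 125 CPM at the lowest, median and highest of the 12 libraries and 46.3, 63.7 and 80.6 CPM over the 18 libraries of the 9 compounds, with no overlap (log2 fold change 0.89 with an SE of 0.056, adjusted p 4.29e-13). SCD had 608, 691 and 794 CPM against 476, 525 and 616 CPM, overlapping at the ends only (log2 fold change 0.39 with an SE of 0.039, adjusted p 1.83e-09). ACLY (238, 264 and 290.2 against 218, 232 and 273 CPM, 0.14 on the log2 scale) and LPIN1 (33.3, 39.98 and 46.4 against 28.2, 34.98 and 38.3 CPM, 0.20) were higher with overlapping ranges. FADS1 was lower, with 129.6, 139 and 154 against 133, 158 and 179.9 CPM (-0.17). FADS2, FASN and ACACA did not pass.

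PMVK was the enzyme that differed most in the other direction, with 10.2, 10.8 and 13.3 CPM in the 6 compounds and 13.7, 16.04 and 19.96 CPM in the 9, again with no overlap (log2 fold change -0.57 with an SE of 0.058, adjusted p 1.98e-09). FDPS had 79.2, 95.5 and 112 CPM against 102, 114 and 147 CPM (log2 fold change -0.32 with an SE of 0.043, adjusted p 2.94e-07). EBP had 41.5, 44.00 and 48.96 CPM against 46.9, 53.00 and 60.1 CPM (log2 fold change -0.24 with an SE of 0.031, adjusted p 1.11e-07). The ranges of FDPS and EBP overlapped. Squalene synthase FDFT1 had 225, 293 and 343 against 261, 339 and 427 CPM (-0.25). LSS had 66.7, 79.9 and 87.8 against 73.1, 87.4 and 108 CPM (-0.21). For TM7SF2 the values were 51.5, 58.7 and 67.6 against 52.1, 67.7 and 76.5 CPM (-0.20). These 3 enzymes were lower in the 6 compounds, as were MVD (-0.19), DHCR7 (-0.15) and CYP51A1 (-0.12), and SC5D was higher (0.11). The lower calls of MVD, DHCR7, CYP51A1 and FADS1 were not seen in TPM per library. MVD ranged from 34.1 to 41.6 TPM in the 6 compounds and 32.6 to 44.1 TPM in the 9, and DHCR7 from 62.6 to 80.6 and 64.4 to 81.2 TPM. CYP51A1 ranged from 24.8 to 33.1 and 22.3 to 34.5 TPM, and FADS1 from 61.5 to 77.5 and 60.1 to 80.1 TPM. The other 8 sterol enzymes did not pass. SREBF1 was higher, with 87.00, 107 and 118 CPM against 84.00, 87.7 and 99.3 CPM (log2 fold change 0.22 with an SE of 0.036, adjusted p 8.01e-06), as was MYLIP (0.25). SCAP (-0.11) and SREBF2 (-0.081) were lower by little, and SREBF2 lost its call under 25 of the alternatives run. In mean TPM per group neither lay lower in the 6 compounds. SREBF2 ran from 143.8 (TEP) to 153.9 TPM (TPHP) there and from 132.5 (AO_2246) to 149.0 TPM (BHT) in the 9. SCAP ran from 63.6 (ACE) to 68.1 TPM (IMI) and from 57.0 (AO168_O) to 67.0 TPM (DTBP).

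Markers moved with the same contrast. The 7 surface ectoderm markers summed to between 4715 and 8240 TPM in the 6 compounds and between 1550 and 3043 TPM in the 9 (6 of 7 higher). The 7 neural ectoderm markers summed to between 248 and 696 TPM and between 539 and 1023 TPM (7 of 7 lower), and the 5 amnion and trophoblast markers to between 30.2 and 349 TPM and between 3.82 and 9.10 TPM (4 of 4 tested higher), with CDX2 at 0 in both libraries of AO168_O, AO_2246, BHA, BHT_CHO, DTBP and TBHQ. The 7 pluripotency markers summed to between 1908 and 3398 TPM and between 2186 and 3947 TPM (6 of 7 lower). Their part in the differences of the 32 genes was not tested. Beside the pathway, ABCA1 (0.88) and the fatty acid oxidation regulator PDK4 (2.77) were higher, and LIPA (-0.79), the liver X receptor NR1H2 (-0.54) and ANGPTL4 (-1.12) lower. By list, 14 of 17 transport genes tested (4 higher), 15 of 24 further fatty acid genes (8 higher), 11 of 14 oxidation genes (6 higher), 6 of 10 isoprenoid genes (5 higher) and 6 of 10 genes of SREBP processing (4 higher) were called, beside 66.5% of all genes, so these counts are given as a description.

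Related phenols were compared in 4 pairs, 3 among BHT, BHT_CHO and BHT_COOH, read from their names as BHT with its ring methyl group turned into an aldehyde or an acid, and TBHQ against BHA, in which BHA carries a methyl ether on a hydroxyl group that is free in TBHQ. Doses are not given, so the differences are between the exposures used. In 128 tests 0 were called, as for all genes (0%), and DESeq2 called 0, as did a fit of these 5 groups alone with the replicate number as a block. At an unadjusted p under 0.05 there were 0 genes in BHT_CHO against BHT, 1 in BHT_COOH against BHT (TM7SF2), 2 in BHT_COOH against BHT_CHO (FADS1 and NSDHL) and 2 in TBHQ against BHA (MVD and FDFT1). Estimates for the 32 genes lay between -0.17 and 0.22 in BHT_CHO against BHT, with the outermost 95% bounds at -0.43 (MYLIP) and 0.49 (HSD17B7). In BHT_COOH against BHT they lay between -0.26 and 0.25, with bounds from -0.63 (ACAT2) to 0.55 (MYLIP). In BHT_COOH against BHT_CHO they lay between -0.25 and 0.22, with bounds from -0.64 (ACAT2) to 0.59 (MYLIP). In TBHQ against BHA they lay between -0.042 and 0.31, with bounds from -0.35 (MYLIP) to 0.59 (MVK). These intervals leave room for differences in either direction, so like responses are not shown.

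The S9 arm was read first in the 6 compounds together, as the mean with S9 against the mean without. In that contrast 11 of the 32 genes rose and 3 fell, where 41.3% of all genes were called, 21.1% higher and 20.2% lower. Of the 18 sterol enzymes 10 rose and 0 fell. FDFT1 had 307, 333 and 364 CPM at the lowest, median and highest of the 12 libraries with S9 and 225, 293 and 343 CPM without (log2 fold change 0.23 with an SE of 0.052, adjusted p 0.000796). DHCR7 had 91.5, 101 and 109.6 against 77.6, 92.8 and 100.5 CPM (log2 fold change 0.16 with an SE of 0.041, adjusted p 0.00184). LSS had 85.3, 88.7 and 100.05 against 66.7, 79.9 and 87.8 CPM (log2 fold change 0.19 with an SE of 0.05, adjusted p 0.00296). Medians moved up and ranges overlapped in all 3 enzymes. SQLE (0.15), CYP51A1 (0.13), FDPS (0.14), MSMO1 (0.20), HMGCS1 (0.17), PMVK (0.17) and EBP (0.085) were higher too, the last 2 with adjusted p of 0.0371 and 0.0428 and lost in 15 and 25 of the alternatives. FASN rose by 0.18 (SE 0.051).

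The genes that fell with S9 were all of fatty acid synthesis. ELOVL6 fell from 107, 116 and 125 CPM to 72.5, 82.3 and 104 CPM with no overlap (log2 fold change -0.46 with an SE of 0.063, adjusted p 1.37e-06). SCD went from 608, 691 and 794 to 579, 643 and 716 CPM (-0.13, SE 0.043) and FADS2 from 313, 368 and 388 to 305, 332 and 371 CPM (-0.13, SE 0.041), both with overlap. None of the 6 regulators passed: INSIG1 was at 0.16 (adjusted p 0.0604) and SREBF1 at 0.10 (adjusted p 0.0542). Surface ectoderm markers summed to between 2271 and 3800 TPM with S9 against 4715 to 8240 TPM without (7 of 7 lower), and neural ectoderm markers to between 539 and 928 TPM against 248 to 696 TPM (6 of 7 higher). Pluripotency markers summed to between 3217 and 4006 TPM with S9 against 1908 to 3398 TPM without (6 of 7 higher), and amnion and trophoblast markers to between 6.96 and 30.5 TPM against 30.2 to 349 TPM (4 of 4 tested lower). The part of these markers in the result was not tested.

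Taken compound by compound, S9 gave 8 calls in 192 tests, all in CYC_S9 against CYC. Of all gene tests over the 6 compounds 3.73% were called, and 20.2% of those in CYC_S9 against CYC, beside 8 of 32 genes here. INSIG1 had 36.95 and 40.4 CPM in CYC and 61.8 and 68.5 CPM in CYC_S9 (log2 fold change 0.76 with an SE of 0.17, adjusted p 0.00278). FDFT1 had 225 and 248 CPM in CYC and 352 and 351 CPM in CYC_S9 (log2 fold change 0.58 with an SE of 0.13, adjusted p 0.00241). SQLE had 84.4 and 86.97 CPM in CYC and 118 and 113 CPM in CYC_S9 (log2 fold change 0.44 with an SE of 0.10, adjusted p 0.00289). In these 3 genes both CYC_S9 libraries lay above both CYC libraries. DHCR7 had 77.6 and 77.9 CPM in CYC and 101 and 109.6 CPM in CYC_S9 (log2 fold change 0.44 with an SE of 0.10, adjusted p 0.00293). MSMO1 had 50.6 and 57.6 CPM in CYC and 76.8 and 83.9 CPM in CYC_S9 (log2 fold change 0.58 with an SE of 0.16, adjusted p 0.0109). HMGCS1 had 79.2 and 85.9 CPM in CYC and 121 and 106 CPM in CYC_S9 (log2 fold change 0.46 with an SE of 0.14, adjusted p 0.0215). FDPS was higher as well (0.36), and ELOVL6 fell, with 125 and 119 CPM in CYC and 85.1 and 94.5 CPM in CYC_S9 (log2 fold change -0.44 with an SE of 0.15, adjusted p 0.0412). Whether S9 acted differently in CYC than in the other 5 compounds was not tested. In those 5 the calls numbered 0, against 4, 1, 1, 3 and 2 genes at an unadjusted p under 0.05 in ACE, IMI, TDCIPP, TEP and TPHP, and DESeq2 called 1 in IMI and 1 in TEP. ELOVL6 was below 0 in all 6 compounds. The 8 calls became 2 without CYC replicate 1 and 5 without either CYC_S9 library. Cell type markers moved with this contrast. Surface ectoderm markers summed to 2930 and 3800 TPM in CYC_S9 against 7930 and 7678 TPM in CYC (6 of 7 lower), and amnion and trophoblast markers to 11.7 and 26.5 TPM against 349 and 229.7 TPM (4 of 4 tested lower). Neural ectoderm markers summed to 779 and 539 TPM against 292 and 285 TPM (3 of 7 higher), pluripotency markers to 3402 and 3365 TPM against 1908 and 2286 TPM (4 of 7 higher), and proliferation markers to 1112 and 1114 TPM against 968 and 973 TPM (2 of 8 higher). Their part in the 8 calls was not tested.

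S9 was also tested in solvent alone. In DMSO_S9 against DMSO 8 of the 32 genes rose and 6 fell, where 45.7% of all genes were called. FADS1 had 169.9 and 166 CPM in DMSO and 239.7 and 246 CPM in DMSO_S9 (log2 fold change 0.54 with an SE of 0.08, adjusted p 5.03e-06). STARD4 had 32.7 and 31.1 CPM in DMSO and 51.8 and 52.6 CPM in DMSO_S9 (log2 fold change 0.71 with an SE of 0.17, adjusted p 0.00147), a level that no other day 8 library reached. SREBF1 had 75.8 and 86.97 CPM in DMSO and 53.3 and 55.6 CPM in DMSO_S9 (log2 fold change -0.57 with an SE of 0.10, adjusted p 4.24e-05), below every other day 8 library. For each of these 3 genes the 2 groups did not overlap. TM7SF2 had 47.7 and 53.6 CPM in DMSO and 68.6 and 69.7 CPM in DMSO_S9 (log2 fold change 0.46 with an SE of 0.10, adjusted p 0.000897). CYP51A1 had 54.7 and 49.7 CPM in DMSO and 38.6 and 39.3 CPM in DMSO_S9 (log2 fold change -0.41 with an SE of 0.092, adjusted p 0.000636). SC5D had 101 and 97.02 CPM in DMSO and 73.3 and 70.8 CPM in DMSO_S9 (log2 fold change -0.45 with an SE of 0.11, adjusted p 0.00207). SCD had 638 and 585 CPM in DMSO and 429 and 453 CPM in DMSO_S9 (log2 fold change -0.47 with an SE of 0.11, adjusted p 0.000898). Enzymes of one pathway went both ways, with the sterol enzymes HSD17B7 (0.37) and DHCR7 (0.30) and the fatty acid genes FADS2 (0.33), ACLY (0.28) and FASN (0.32) higher and the regulators INSIG1 (-0.54) and MYLIP (-0.49) lower. Calls numbered 7 without DMSO replicate 1 and 9 without DMSO_S9 replicate 2. Pluripotency markers summed to 1369 and 1380 TPM in DMSO_S9 against 3091 and 3968 TPM in DMSO (5 of 7 lower), proliferation markers to 802 and 830 TPM against 1046 and 1194 TPM (6 of 8 lower), and neural ectoderm markers to 1252 and 1274 TPM against 717 and 980 TPM (2 of 7 higher and 2 lower). The part of these markers was not tested.

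**Figure D5:**
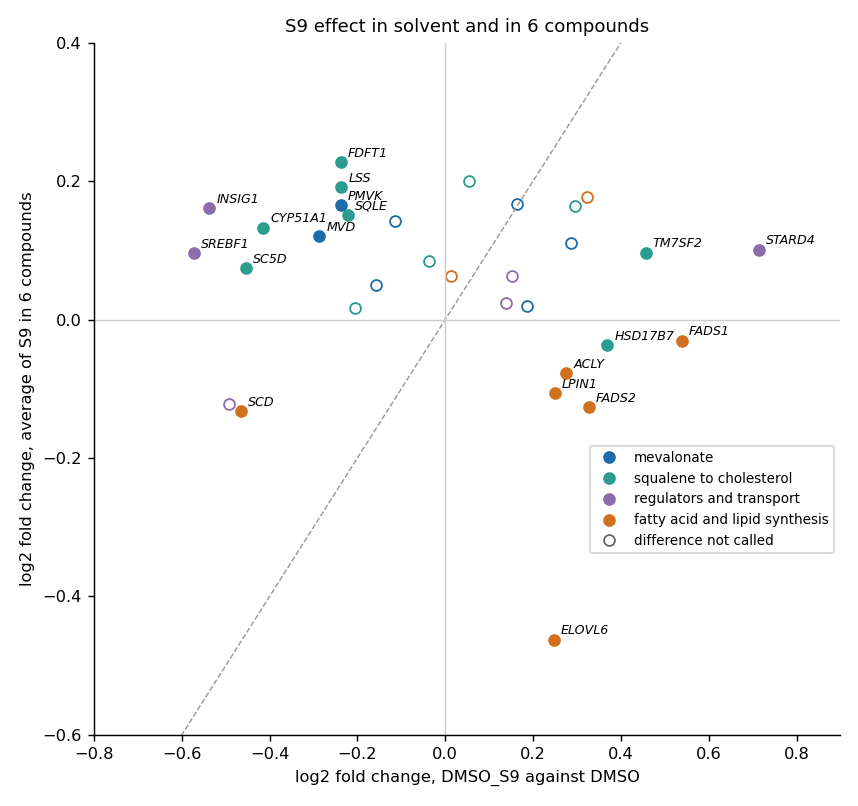
Log2 fold change of the 32 genes with S9 in solvent (DMSO_S9 against DMSO, horizontal axis) and averaged over the 6 compounds (vertical axis), coloured by role; filled and named points differed between both effects in an interaction contrast, and the dashed line marks equal effects. STARD4 lies at 0.71 and 0.10, SREBF1 at -0.57 and 0.096, and ELOVL6 at 0.25 and -0.46.

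The difference between both S9 effects was tested directly. It passed in 18 of the 32 genes (56.2%), 10 with a higher effect in the compounds and 8 with a lower one. Among all genes 50.9% were called, so the share lay near the background. For SREBF1 the effect was -0.57 in solvent and 0.10 in the compounds (difference 0.67, SE 0.11, adjusted p 1.1e-05). For FADS1 it was 0.54 and -0.03 (difference -0.57, SE 0.086, adjusted p 5.09e-06). Of the 32 genes, 11 passed without DMSO replicate 1. Against DMSO_S9, the 6 compounds with S9 gave 90 calls in 192 tests (46.9%, with 50% of all gene tests called); SREBF1 was higher in all 6, by 0.97 to 1.11, and STARD4 and FADS1 lower in all 6, by 0.81 to 0.98 and 0.81 to 0.86. The calls became 54 without DMSO_S9 replicate 2.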

How the data were processed

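RNA was selected with oligo-dT and sequenced on an MGI2000, per the labels' protocols, in 48 libraries of H9 cells in 24 groups of 2. The deposited files give estimated counts and TPM per gene. The submitters' processing notes name GRCh38.p13, while which program counted the reads, and whether by strand, is not stated in the labels or files. The authors' TPM values served to compare levels between genes, and summed levels of these genes and of markers between groups, without a test. CPM and TPM are scaled differently and did not always give the same direction between groups. Deposited estimated counts were rounded to whole numbers, which changed 43.4% of values, and tested with edgeR 4.0.16 in R 4.3.3 (filterByExpr by group, TMM scaling, glmQLFit and glmQLFTest). Comparisons within day 8 used a fit of 46 libraries (16113 genes, 23 residual degrees of freedom), and those with D0 a fit of all 48 (16209 genes, 24). P-values were Benjamini-Hochberg adjusted over all genes within each comparison, with a threshold of 0.05. CPM values were scaled by TMM over 48 libraries. No column belonged to samples outside the series. Libraries held 17918867 to 20096130 counts, and replicates of every group differed by more than counting error.

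The 32 genes and the gene lists were chosen with earlier results of these data known. Values in single libraries are given for genes that passed, at most 8 for each role and comparison and fewer where comparisons share a result; for groups of over 5 libraries the lowest, median and highest are given. Genes of other lists are named by their p-values, at most 4 a list. Alternatives were DESeq2 1.42.0, RLE size factors, no filter on low counts, a fit of only the groups compared, a replicate block, leaving out the DMSO_S9 libraries with DG replicate 1, and leaving out each library in turn. The alternatives for each group against D0, and the fits of the 5 phenols alone with and without a replicate block, were chosen after seeing the data. The statistical scripts were tested on simulated data.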

Additional observations from a re-analysis of the deposited data

Results flagged for a closer look

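The effect of S9 differed between solvent and the 6 compounds for 18 of the 32 genes (56.2%). This was an interaction contrast in edgeR's quasi-likelihood test, with adjusted p under 0.05 over all genes. In the same contrast 50.9% of all genes were called, so the share lay near the background. The values below are the average S9 effect in ACE, CYC, IMI, TDCIPP, TEP and TPHP minus the S9 effect in DMSO, on the log2 scale.

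The difference was above 0 for INSIG1 (0.70), SREBF1 (0.67), CYP51A1 (0.55), SC5D (0.53), FDFT1 (0.46), LSS (0.43), MVD (0.41), PMVK (0.40), SQLE (0.37) and SCD (0.33). Of the 7 sterol enzymes among these, CYP51A1, FDFT1, LSS, PMVK and SQLE rose with S9 in the compounds, and CYP51A1 and SC5D fell with S9 in solvent.

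The difference was below 0 for ELOVL6 (-0.71), STARD4 (-0.61), FADS1 (-0.57), FADS2 (-0.45), HSD17B7 (-0.41), TM7SF2 (-0.36), LPIN1 (-0.36) and ACLY (-0.35). ELOVL6 fell with S9 in the compounds (-0.46) and was not called in solvent (0.25), whereas STARD4 and FADS1 rose in solvent.

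Every difference rests on the 2 DMSO and 2 DMSO_S9 libraries, and the DMSO_S9 libraries stood apart from the other day 8 groups. Without DMSO replicate 1, 11 of the 32 genes passed. Of the 18 genes, CYP51A1, SC5D, INSIG1, SREBF1, STARD4, ACLY, ELOVL6, FADS1 and FADS2 passed under every alternative run.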

How the results depend on the processing

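Over 145 results for single genes and 2632 values under the alternatives, 2339 kept their direction and call, 293 kept the direction but lost the call, and 0 reversed. The 145 results were those called in the main fit, and every alternative used the same counts, so reversals were unlikely beforehand. TPM was not among the alternatives, and it did not always give the same direction between groups. Under the alternatives that did not leave out single libraries in turn, the counts of genes called stayed within 1.5 times of those reported for every comparison but 3. For CYC against the other 5 compounds (1 gene), DESeq2 called 5, the fit of only the groups compared 0, the fit without the DMSO_S9 libraries and DG replicate 1 called 0, and leaving out single libraries gave 0 to 6. For S9 in each compound (8 calls), the fit of only the groups compared gave 14, and leaving out single libraries 2 to 10. For the 15 compounds against DMSO (41 calls), the fit of only the groups compared gave 15, and leaving out single libraries 4 to 47. The cause was not tested.

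Leaving out a single library also moved the counts by over 1.5 times for CYC against DMSO (13 genes), DMSO_S9 against DMSO (14), the compounds with S9 against DMSO_S9 (90) and the difference between S9 effects (18). The numbers called were 28 to 31 for DMSO against D0, 28 to 32 for the mean of 23 groups against D0, 631 to 705 for each group against D0, 3 to 12 for CYC against DMSO, 18 to 22 for the 6 against the 9 compounds, 0 to 0 for the phenol pairs, 7 to 12 for DMSO_S9 against DMSO, 12 to 17 for the average of S9, 54 to 88 for the compounds with S9 against DMSO_S9, and 11 to 19 for the difference between S9 effects. A group left with 1 library is assumed to vary like the other groups.

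Over 253 pairs of day 8 groups the correlation of replicate differences ran from -0.56 to 0.69, with 82 pairs over 0.1, so the numbers did not pair all groups; among the 9 compounds 29 of 36 pairs were over 0.1, and among the 5 phenols compared in pairs all 10 were (0.33 to 0.62). A replicate block among these 5, added after seeing the data, again called 0 of the 32 genes. Over all day 8 groups a replicate block gave 4 genes for CYC against the other 5 compounds, 13 calls for S9 in each compound and 54 for the 15 compounds, and no single gene lost its call under it.

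A fit of only the groups compared was not run for the mean of 23 groups or for each group against D0, and the alternative without the DMSO_S9 libraries gives no value for contrasts that use them.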
